A study of Mus musculus with 49 samples.

Results

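Activins, bone morphogenetic proteins (BMPs) and their relatives form the TGF-beta superfamily of secreted dimers. A ligand brings together type II and type I receptor kinases, and the type I receptor phosphorylates SMAD proteins that enter the nucleus with SMAD4. Activin-type ligands act through SMAD2 and SMAD3, BMP-type ligands through SMAD1, SMAD5 and SMAD9. Secreted antagonists such as follistatin bind the ligands, and the inhibitory SMADs feed back on the receptors. In the forebrain, activin A is known as a factor made by active neurons that acts on synapses and excitability.

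Of the 45252 genes counted, 10 genes of this pathway were described in mouse neocortex: Fst, Acvr1c, Hjv, Inhba, Acvr1b, Acvr2a, Bmpr2, Smad7, Id1 and Id3. They were chosen by symbol because counts of Fst, Acvr1c and Hjv were lower in bigenic mice. The group differences from controls therefore describe how the genes were selected, and for these 10 genes they are given as a description, with no p-value. All 10 passed the filter on low counts, as did 18220 genes in all.

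Neocortex from 49 mice, each of them mixed C57BL/6J x C3H/HeJ, gave 1 library per mouse. The bigenic mice (rNLS8) carried NEFH-tTA, in which the promoter of the neurofilament heavy chain gene drives the transactivator, and tetO-hTDP43ΔNLS, human TDP-43 lacking its nuclear localization signal. Monogenic mice carried a tetO-hTDP43ΔNLS allele without the transactivator. In every group, doxycycline was withdrawn when the mice were 25.5 weeks old, and they were killed 3 weeks later, at 28.5 weeks. The groups were 17 monogenic mice given PBS (ctrl-PBS, 10 females and 7 males), 10 bigenic mice given PBS (TDP-PBS, 4 females and 6 males), 10 bigenic mice immunized with peptides 10 and 12 of TDP-43 (TDP-10+12, 6 females and 4 males) and 12 bigenic mice immunized with the phosphorylated peptide 15 (TDP-15, 5 females and 7 males). The immunized mice received, from 8 weeks of age, 40 µg in total per dose of peptide coupled to ovalbumin. The PBS groups were given no conjugate, so peptide and ovalbumin carrier cannot be told apart. The model places the transgene in neurons that use the neurofilament promoter, whereas the RNA came from all cells of the tissue.

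Total counts per mouse lay between 17775738 and 21033608. Levels are given as CPM, counts scaled to the same effective total in every mouse, and the 3 counts taken as a floor corresponded to 0.139 to 0.165 CPM, which covers counting error only. The summed CPM of 4 excitatory neuron markers had a median of 6640 CPM in ctrl-PBS mice (range 5220 to 7920), 5340 in TDP-PBS (3900 to 5840), 5010 in TDP-10+12 (3790 to 5900) and 4960 in TDP-15 (4190 to 5660). Of these 4 markers, 2 fell and 1 rose in TDP-PBS mice against ctrl-PBS. The summed microglia markers had medians of 149, 182, 178 and 186 CPM in the same order. Against ctrl-PBS, 3 of the 4 microglia markers rose in each bigenic group by edgeR, and 1 fell in TDP-10+12 and in TDP-15. Choroid plexus markers exceeded 100 CPM in 11 mice (2, 3, 3 and 3 per group) and reached 1680 CPM, and olfactory bulb markers exceeded 10 CPM in 5 mice. Mice 301 (male) and 266 (female) of TDP-10+12 stood apart in several of the genes below, and for some of these genes values are also given without mouse 301 or without both.

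Fst encodes follistatin, a secreted protein that binds activins and blocks their access to the receptor. In ctrl-PBS mice it ranged from 1.52 to 3.67 CPM with a median of 2.31. It ranged from 0.637 to 1.41 (median 0.819) in TDP-PBS mice, from 0.507 to 2.32 (median 1.29) in TDP-10+12 mice and from 0.646 to 1.32 (median 0.828) in TDP-15 mice. All TDP-PBS and all TDP-15 mice lay below the lowest ctrl-PBS mouse, as did 8 of 10 TDP-10+12 mice, which makes 30 of 32 bigenic mice. The log2 fold change against ctrl-PBS was -1.27 ± 0.17 (SE) in TDP-PBS, -0.88 ± 0.16 in TDP-10+12 and -1.38 ± 0.16 in TDP-15. These levels rested on 29 to 70 counts per ctrl-PBS mouse and 10 to 47 per bigenic mouse. In bulk tissue, fewer cells of a type and less RNA per cell cannot be told apart. The neuronal marker sums given above moved with the genotype too, and their part in these differences was not tested.

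Acvr1c encodes ALK7, a type I receptor for Nodal and activin B. It ranged from 10.5 to 20.98 CPM in ctrl-PBS mice (median 15.3). The range was 4.53 to 11.4 CPM (median 7.22) in TDP-PBS, 6.02 to 13.7 (median 7.81) in TDP-10+12 and 5.68 to 10.5 (median 7.46) in TDP-15. The 12 TDP-15 mice, 9 of 10 TDP-PBS mice and 8 of 10 TDP-10+12 mice were below every ctrl-PBS mouse. The highest TDP-15 mouse and the lowest ctrl-PBS mouse were nearly equal, and both TDP-10+12 mice inside the control range were mice 301 and 266, at 13.6 and 13.7 CPM. Acvr1c had a log2 fold change of -1.02 ± 0.14 (SE) in TDP-PBS, -0.79 ± 0.13 in TDP-10+12 and -0.96 ± 0.13 in TDP-15.

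Hjv encodes hemojuvelin, a membrane-anchored BMP co-receptor known for its role in iron regulation. It was near the limit of the depth, with 5 to 37 counts per ctrl-PBS mouse and 1 to 19 per bigenic mouse. Its level was 0.275 to 1.92 CPM (median 0.898) in ctrl-PBS, 0.0987 to 0.905 (median 0.528) in TDP-PBS, 0.0989 to 0.648 (median 0.343) in TDP-10+12 and 0.0491 to 0.895 (median 0.535) in TDP-15. The groups overlapped widely: 8 of 32 bigenic mice were below every ctrl-PBS mouse. At most 3 counts were found in 3 TDP-PBS, 4 TDP-10+12 and 1 TDP-15 mice, so that single low values are not distinguishable from each other. For Hjv, the fitted log2 fold change was -1.06 ± 0.31 (SE) in TDP-PBS, -1.502 ± 0.32 in TDP-10+12 and -0.90 ± 0.28 in TDP-15.

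**Figure D1:**
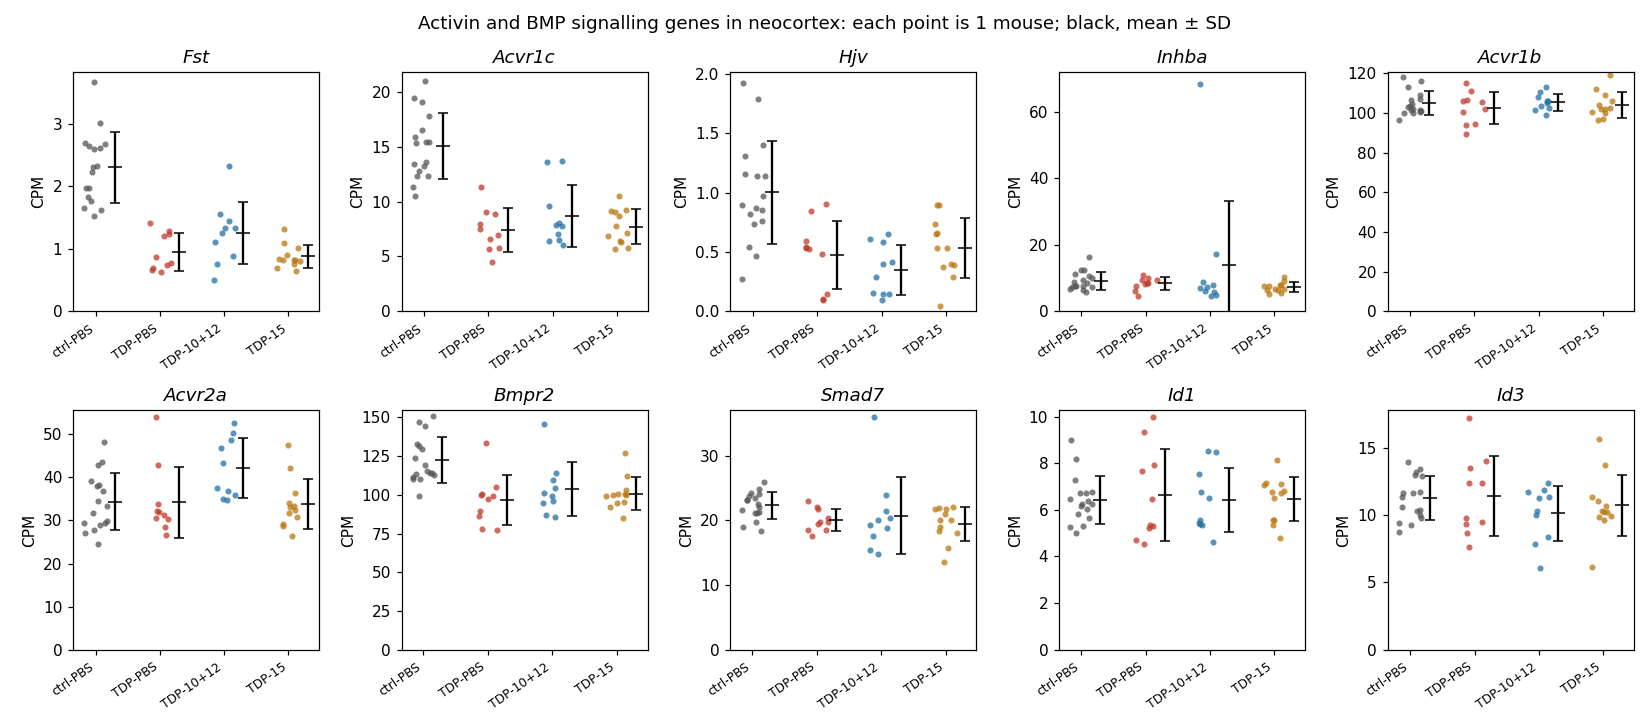
CPM of the 10 genes (y axis, linear, starting at 0) in the 4 groups, with a point per mouse and the mean ± SD in black beside the points; the lower end of the bar of Inhba in TDP-10+12 mice is below 0 and not drawn. Fst and Acvr1c lie lower in bigenic than in most ctrl-PBS mice, and a single TDP-10+12 mouse reaches 68.2 CPM of Inhba.

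Inhba encodes the beta A subunit, whose dimer is activin A. In ctrl-PBS mice it ranged from 5.96 to 16.4 CPM (median 8.49), in TDP-PBS mice from 4.75 to 10.8 (median 8.48), in TDP-10+12 mice from 4.62 to 68.2 (median 7.12) and in TDP-15 mice from 5.18 to 10.3 (median 7.14). Mouse 301 held the 68.2 CPM (1380 counts) and mouse 266 the next value, 17.2 CPM, whereas the other 30 bigenic mice did not exceed 10.8 CPM. The log2 fold change against ctrl-PBS was -0.14 ± 0.27 (SE) in TDP-PBS and -0.34 ± 0.26 in TDP-15. These SEs rest on a spread estimated over all 49 mice, mouse 301 included, and are not given without it. The mean level was 9.22 ± 2.75 CPM in ctrl-PBS (SD, n = 17), 8.38 ± 1.81 in TDP-PBS (n = 10) and 7.30 ± 1.46 in TDP-15 (n = 12). In TDP-10+12 the log2 fold change against ctrl-PBS was 0.58 ± 0.26 (SE) with all mice, -0.24 without mouse 301 and -0.48 without both mice. The mean level in TDP-10+12 was 13.8 ± 19.5 CPM (SD, n = 10) with all mice and 7.75 ± 3.81 CPM (n = 9) without mouse 301. The annotated span of Inhba, introns included, shares 19168 bases with that of the transcribed pseudogene B230303A05Rik. The exons of Inhba cover 6390 bases, and how much of the overlap is exon was not worked out. The pseudogene held 3279 counts over all mice against 9276 for Inhba. The strand setting of the counting is not given in the sources used here, so that a part of the reads could belong to either.

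Acvr1b encodes ALK4, the main type I receptor of activin A. Its mean was 105 ± 6.06 CPM in the 17 ctrl-PBS mice (SD), 103 ± 8.01 in the 10 TDP-PBS mice, 106 ± 4.27 in the 10 TDP-10+12 mice and 104 ± 6.61 in the 12 TDP-15 mice. The ranges of the 4 groups overlapped, and the 95% confidence interval of the log2 fold change in TDP-PBS was -0.11 to 0.04. Of the 10 genes it had the highest level per exon length in ctrl-PBS mice, 23.8 ± 1.37 CPM per kb (SD, n = 17). Acvr1c, the related type I receptor, had 1.62 ± 0.32 CPM per kb in ctrl-PBS and 0.852 ± 0.231 (n = 32) in bigenic mice.

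The starts of these receptor genes are shown because the receptors differed in the controls' level and in the fold change. The sequences are from RefSeq (GRCm38.p6), written 5′ to 3′ on the gene's strand. That of Id3, a target gene of BMP signalling, is printed for comparison, with capitals marking CAGAC or its complement GTCTG, a short motif bound by SMAD3 and SMAD4. The stretches are chr2:58357897-58358008 (minus strand) before Acvr1c, chr15:101173822-101174071 (plus strand) before Acvr1b and chr4:136143572-136143821 (plus strand) before Id3.
Acvr1c: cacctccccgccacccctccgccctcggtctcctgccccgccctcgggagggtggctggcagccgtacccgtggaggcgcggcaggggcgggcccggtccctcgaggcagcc
Acvr1b: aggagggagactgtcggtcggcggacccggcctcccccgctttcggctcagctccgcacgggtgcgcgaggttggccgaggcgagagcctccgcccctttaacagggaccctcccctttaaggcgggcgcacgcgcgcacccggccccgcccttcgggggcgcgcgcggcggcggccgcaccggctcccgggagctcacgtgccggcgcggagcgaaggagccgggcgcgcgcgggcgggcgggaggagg
Id3: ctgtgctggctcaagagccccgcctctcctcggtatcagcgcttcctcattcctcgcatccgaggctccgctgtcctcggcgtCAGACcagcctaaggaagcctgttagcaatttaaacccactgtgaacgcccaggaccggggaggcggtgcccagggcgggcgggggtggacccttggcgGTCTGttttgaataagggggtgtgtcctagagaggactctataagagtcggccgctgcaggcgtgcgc
The GC content of the 250 bases before the start was 79.6% for Acvr1c and 78.8% for Acvr1b, at percentiles 98.6 and 98.3 of 32851 promoters, and 62.8% for Id3. The Acvr1c window (58357759 to 58358008) reaches into the annotated gene, and the stretch printed is the part outside it. A second listed start of Acvr1c, inside the gene, had 49.6% GC (percentile 39.5) and none of the motifs searched. CAGAC, on either strand, was found 2 times before Id3 and in neither window of these receptors, and 1 time before Acvr2a, a type II receptor gene; 42.2% of all promoters held it. The other searched motifs, GGCGCC (in 9.59% of promoters) and the palindrome GTCTAGAC (in 0.167%), were in none of the printed stretches, and GGCGCC was found 1 time before Bmpr2. The starts of Fst, Hjv, Smad7 and Id1 were not searched. A match describes letters and not a binding site.

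Acvr2a and Bmpr2 encode type II receptors, the first for activins and several BMPs, the second for BMPs. Acvr2a ranged from 24.4 to 48.2 CPM in ctrl-PBS (median 33.4), from 26.6 to 54.1 in TDP-PBS (median 31.7), from 34.8 to 52.6 in TDP-10+12 (median 40.4) and from 26.4 to 47.5 in TDP-15 (median 32.8). The groups overlapped, and 3 of 10 TDP-10+12 mice exceeded every ctrl-PBS mouse. The log2 fold change against ctrl-PBS was -0.00 ± 0.10 (SE) in TDP-PBS, 0.30 ± 0.10 in TDP-10+12 and -0.02 ± 0.10 in TDP-15. At the 3′ end, the annotated span of Acvr2a shares 441 bases with that of Orc4, which held 21720 counts over all mice against 34912 for Acvr2a.

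Bmpr2 ranged from 99.3 to 151 CPM in ctrl-PBS (median 115), from 77.4 to 133 in TDP-PBS (median 98.2), from 85.7 to 146 in TDP-10+12 (median 100.2) and from 84.7 to 127 in TDP-15 (median 100.03). Of the 32 bigenic mice, 16 were below every ctrl-PBS mouse and the rest overlapped. Against ctrl-PBS, Bmpr2 had a log2 fold change of -0.34 ± 0.07 (SE) in TDP-PBS, -0.24 ± 0.07 in TDP-10+12 and -0.28 ± 0.07 in TDP-15.

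Smad7 encodes an inhibitory SMAD that TGF-beta, activin and BMP signals induce. It averaged 22.3 ± 2.08 CPM in the 17 ctrl-PBS mice (SD), 20.1 ± 1.75 in the 10 TDP-PBS mice, 20.7 ± 5.98 in the 10 TDP-10+12 mice and 19.4 ± 2.66 in the 12 TDP-15 mice. Mouse 301 had 35.9 CPM, above every other mouse, and without it the TDP-10+12 mean was 19.1 ± 2.86 (n = 9). Fitted log2 fold changes of Smad7 were -0.15 ± 0.09 (SE) in TDP-PBS, -0.11 ± 0.09 in TDP-10+12 and -0.20 ± 0.08 in TDP-15.

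Id1 and Id3 encode inhibitors of DNA binding, helix-loop-helix proteins that BMP signalling induces. Id1 averaged 6.43 ± 1.02 CPM in the 17 ctrl-PBS mice (SD), 6.65 ± 1.97 in the 10 TDP-PBS mice, 6.42 ± 1.38 in the 10 TDP-10+12 mice and 6.47 ± 0.959 in the 12 TDP-15 mice. Id3 averaged 11.2 ± 1.61, 11.4 ± 2.97, 10.1 ± 2.06 and 10.7 ± 2.29 CPM in the same groups. Neither gene separated the groups. The 95% interval of the log2 fold change in TDP-PBS was -0.18 to 0.27 for Id1 and -0.20 to 0.25 for Id3.

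As a description of the selected genes and not as a test of them, 4 of the 10 (Fst, Acvr1c, Hjv and Bmpr2) were on the lower side of the threshold used for all genes and 0 on the higher side in TDP-PBS mice against ctrl-PBS, where 21.6% of all genes were lower and 21.9% higher. In TDP-10+12 Fst, Acvr1c, Hjv and Bmpr2 were lower and Acvr2a was higher, beside 20% lower and 20.8% higher of all genes. In TDP-15, 5 were lower, with Smad7 added, and 0 higher, beside 23.2% lower and 23.7% higher of all genes. These comparisons share the ctrl-PBS mice, and as they were used to select the genes, nothing is read from these counts, which restate the selection.

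Levels per kb of exon put the members in the following order in ctrl-PBS mice: Acvr1b, then Bmpr2 (6.80 ± 0.82 CPM per kb; SD, n = 17), Id3 (6.28 ± 0.90), Acvr2a (6.04 ± 1.17), Id1 (5.54 ± 0.88) and Smad7, then Acvr1c and Inhba (1.44 ± 0.43), and last Fst (0.501 ± 0.124) and Hjv (0.494 ± 0.214). Apart from Acvr1b, neighbours in this order differed by less than the larger SD of the pair, except between Smad7 and Acvr1c and between Inhba and Fst.

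**Figure D2:**
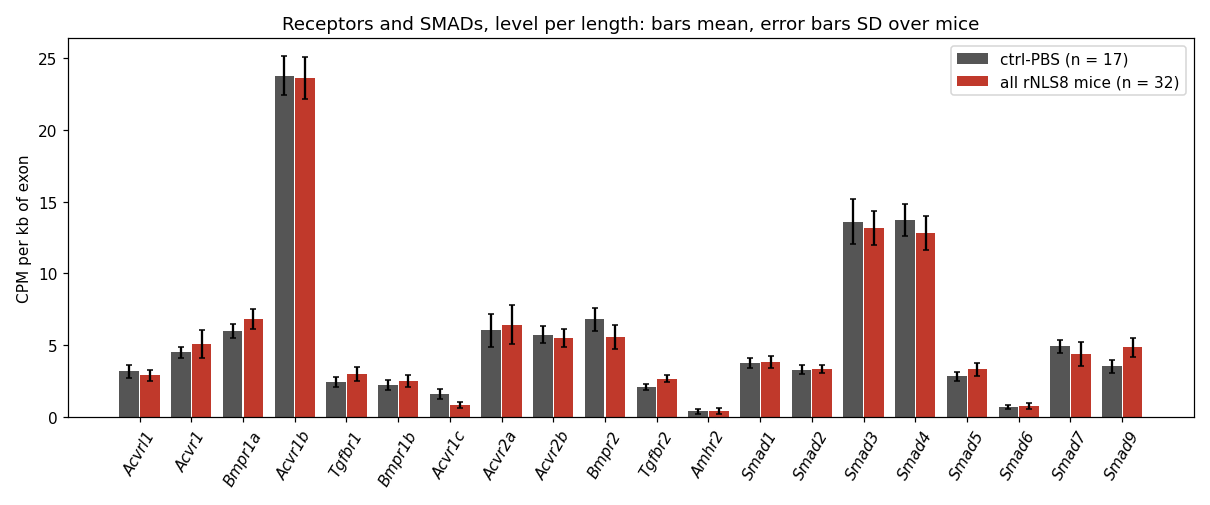
Level per exon length (CPM per kb; y axis, linear) of the type I receptors, type II receptors and SMADs, as mean with SD over 17 ctrl-PBS mice (grey) and 32 bigenic mice (red). Acvr1b is the highest bar among the receptors and Acvr1c falls from 1.62 to 0.852 CPM per kb.

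The other genes of the pathway came from lists by role with 105 genes, 83 of them tested. The 73 tested genes that are not one of the 10 were called by edgeR's quasi-likelihood test (Benjamini-Hochberg adjusted p under the threshold). In TDP-PBS mice against ctrl-PBS, 15 (20.5%) rose and 20 (27.4%) fell, beside 21.9% and 21.6% of all genes. In TDP-10+12, 17 (23.3%) rose and 18 (24.7%) fell, beside 20.8% and 20% of all genes. In TDP-15, 16 (21.9%) rose and 21 (28.8%) fell, beside 23.7% and 23.2% of all genes. The median log2 fold change of the 73 genes was 0.03, -0.01 and -0.07 in the 3 comparisons, and that of all genes was within 0.01 of 0 in each. The larger changes named here went both ways.

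Of the other activin and inhibin subunits, Inhbb, which forms activin B, fell from 4.20 ± 0.68 CPM in the 17 ctrl-PBS mice (SD) to 2.89 ± 0.56 in the 10 TDP-PBS mice, with 6 of 10 mice below every ctrl-PBS mouse (log2 fold change -0.54 ± 0.13 SE; edgeR adjusted p = 0.00045). Inha, the inhibin alpha subunit, fell from 55.7 ± 5.31 to 43.0 ± 4.89 CPM (log2 fold change -0.37 ± 0.06; edgeR adjusted p = 9.8e-07). Both also fell in TDP-10+12 and in TDP-15. Inhbc and Inhbe were not tested at these counts. Among the related ligands, Gdf10 fell by 0.71 ± 0.15 on the log2 scale in TDP-PBS (edgeR adjusted p = 0.00017) and Bmp3 by 0.47 ± 0.09 (edgeR adjusted p = 1.7e-05). Amh fell by 0.49 ± 0.17 (edgeR adjusted p = 0.018) there, and without the mice rich in choroid plexus markers the log2 fold change was -0.50 with an adjusted p of 0.054.

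Among the ligands that passed the filter on low counts, Tgfb1 and Bmp4 had the largest increases in TDP-PBS. Gdf15, which did not pass it and was singled out once its values were known, had 0 to 3 counts per ctrl-PBS mouse and 0 to 14 per TDP-PBS mouse. Tgfb1, the TGF-beta that microglia make, rose from 9.26 ± 1.18 CPM (SD, n = 17) to 14.4 ± 1.91 in the 10 TDP-PBS mice, and the 10 mice lay above every ctrl-PBS mouse (log2 fold change 0.63 ± 0.15 SE; edgeR adjusted p = 0.00034). The microglia marker sum given above was also higher in these mice, and its part in the rise was not tested. The SE of Tgfb1 rests on a spread over all 49 mice, among which 1 TDP-10+12 mouse reached 44.6 CPM (group median 13.6). Bmp4 rose by 0.54 ± 0.16 on the log2 scale (edgeR adjusted p = 0.0043), and without the mice rich in choroid plexus markers the value was 0.44 with an adjusted p of 0.056.

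Among the other 5 type I receptors, Tgfbr1 (0.29 ± 0.08 log2 fold change ± SE), Bmpr1a (0.17 ± 0.05) and Bmpr1b (0.22 ± 0.08) exceeded the ctrl-PBS level in TDP-PBS mice (edgeR adjusted p = 0.0035, 0.0094 and 0.030), whereas Acvr1 (0.13 ± 0.08) and Acvrl1 (-0.07 ± 0.07) did not pass. Bmpr1b was near the threshold, with an adjusted p of 0.0501 without the filter, 0.0503 in a fit of only the 2 groups and 0.090 without the mice rich in choroid plexus markers, at log2 fold changes of 0.22, 0.23 and 0.22. Acvr1 passed in the fit of only the 2 groups (edgeR adjusted p = 0.034) and without mice 301 and 266 (0.039). Of the other type II receptors, Tgfbr2, the TGF-beta receptor, rose by 0.32 ± 0.06 (edgeR adjusted p = 9.2e-06), and Acvr2b (-0.07 ± 0.06) and Amhr2 (0.30 ± 0.21) did not pass. Among the co-receptors, Tgfbr3, or betaglycan, rose by 0.41 ± 0.10 (edgeR adjusted p = 0.00039), while Rgma and Rgmb, the relatives of Hjv that act as BMP co-receptors in the nervous system, fell by 0.23 ± 0.06 and 0.30 ± 0.05 (edgeR adjusted p = 0.0019 and 2.8e-06). The part of changed cell composition in these values was not tested.

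Of the 15 tested extracellular antagonists other than Fst, 2 (13.3%) rose and 5 (33.3%) fell in TDP-PBS mice, beside 21.9% and 21.6% of all genes. Twsg1, a modulator of BMP binding, rose from 25.4 ± 2.13 CPM (SD, n = 17) to 34.7 ± 2.47 (n = 10), and each of the 32 bigenic mice exceeded every ctrl-PBS mouse (log2 fold change 0.45 ± 0.05 SE; edgeR adjusted p = 2.2e-11). Dand5, an antagonist of Nodal and BMPs, fell from 9.03 ± 1.03 to 5.80 ± 0.69 CPM, with 30 of 32 bigenic mice below every ctrl-PBS mouse (log2 fold change -0.64 ± 0.08; edgeR adjusted p = 1.2e-08). Noggin (Nog) did not pass in TDP-PBS (-0.20 ± 0.11).

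The receptor-regulated SMADs of the activin branch, Smad2 (0.06 ± 0.05) and Smad3 (-0.00 ± 0.06), did not pass in TDP-PBS, nor did Smad1 (0.04 ± 0.06) and the inhibitory Smad6 (0.12 ± 0.14). Smad5 and Smad9, which act in the BMP branch, rose by 0.23 ± 0.07 and 0.43 ± 0.08 (edgeR adjusted p = 0.0066 and 6.6e-06), and Smad9 averaged 19.1 ± 2.42 CPM in the 17 ctrl-PBS mice (SD) against 25.6 ± 5.03 in the 10 TDP-PBS mice. Smad4 fell by 0.15 ± 0.05 in TDP-PBS (edgeR adjusted p = 0.0095), and without the mice rich in choroid plexus markers the value was -0.10 with an adjusted p of 0.20. Of the intracellular regulators, Tgif1, a repressor that binds SMADs, rose from 1.63 ± 0.42 to 3.79 ± 0.69 CPM, all 10 TDP-PBS mice lying above every ctrl-PBS mouse (log2 fold change 1.21 ± 0.17; edgeR adjusted p = 2.7e-08). Fkbp1a, which encodes FKBP12, a protein that holds type I receptors inactive, fell from 411 ± 24.4 to 303 ± 39.4 CPM, and 31 of 32 bigenic mice were below every ctrl-PBS mouse (log2 fold change -0.44 ± 0.05; edgeR adjusted p = 8.0e-11).

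Among the target genes, Id2 fell from 67.7 ± 6.87 CPM (SD, n = 17) to 50.1 ± 5.94 in the 10 TDP-PBS mice and Id4 from 66.9 ± 8.06 to 53.1 ± 9.56 (log2 fold changes -0.43 ± 0.06 and -0.33 ± 0.08 SE; edgeR adjusted p = 4.7e-09 and 0.00098). Both were lower in TDP-10+12 and TDP-15 as well. The corresponding estimates for Id1 and Id3 in TDP-PBS were 0.05 ± 0.11 and 0.02 ± 0.11, and the difference between the Id genes was not tested.

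**Figure D3:**
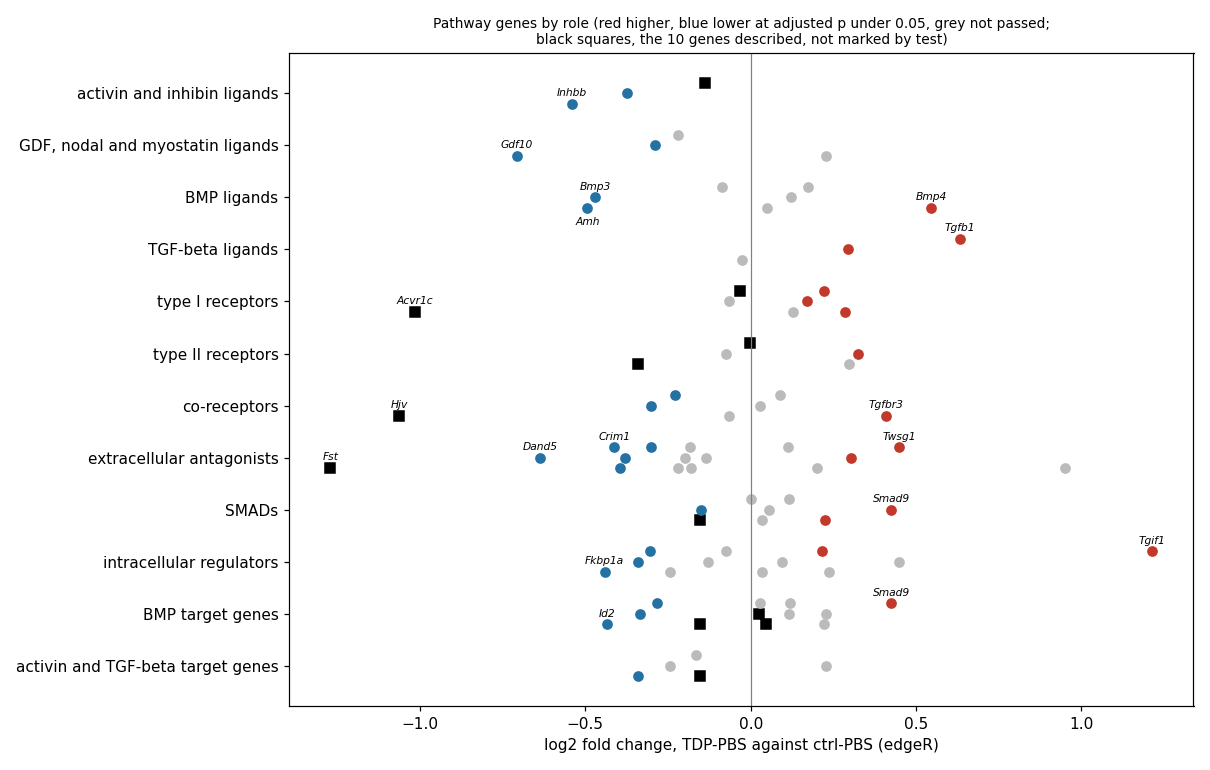
Log2 fold change of TDP-PBS against ctrl-PBS (x axis) for tested genes of each role list (y axis); red and blue mark genes higher and lower by edgeR, grey those that did not pass, and black squares the 10 genes, which are not marked by a test because these values selected them. Fst, Hjv and Acvr1c are the leftmost squares (-1.27, -1.06 and -1.02), and Tgif1 lies farthest to the right (1.21).

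Immunization was compared among the bigenic mice, a contrast the selection did not use. By edgeR, 0 of the 10 genes differed between TDP-10+12 and TDP-PBS, between TDP-15 and TDP-PBS or between TDP-10+12 and TDP-15, where 0%, 0% and 0% of all 18220 genes were called. At an unadjusted p under 0.05 there were 952, 552 and 1244 genes in all, and 3, 0 and 3 of the 10. DESeq2 and limma-voom also called 0 of all genes in each comparison. Without the filter on low counts 1, 0 and 1 genes were called, and in fits of only the groups compared 0, 0 and 2, none of them one of the 10. The 3 genes past the unadjusted threshold were Fst, Inhba and Acvr2a in both comparisons of TDP-10+12.

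Fst differed by 0.40 (95% confidence interval 0.01 to 0.78) on the log2 scale between TDP-10+12 and TDP-PBS mice (edgeR adjusted p = 0.94) and by 0.51 (0.14 to 0.87) between TDP-10+12 and TDP-15 mice (edgeR adjusted p = 0.56). Without mouse 301 these values were 0.25 and 0.36, and without mice 301 and 266 they were 0.20 and 0.32. Acvr2a differed by 0.30 (0.07 to 0.53) from TDP-PBS and by 0.32 (0.10 to 0.54) from TDP-15 (edgeR adjusted p = 0.92 and 0.54), and by 0.28 and 0.30 without mouse 301 and 0.31 and 0.33 without both. Inhba differed by 0.72 (0.11 to 1.33) and 0.92 (0.34 to 1.5) (edgeR adjusted p = 0.93 and 0.47), but by -0.11 and 0.09 without mouse 301 and by -0.35 and -0.15 without both. For Acvr1c the interval was -0.08 to 0.52 in TDP-10+12 against TDP-PBS and -0.23 to 0.34 in TDP-15 against TDP-PBS, and the fitted difference of the former was 0.22 with all mice, 0.13 without mouse 301 and -0.0027 without both. For Hjv the intervals were as wide as -1.18 to 0.30 and -0.52 to 0.84, at the low counts of this gene. Acvr1b had the narrowest intervals, -0.04 to 0.12 and -0.05 to 0.10.

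**Figure D4:**
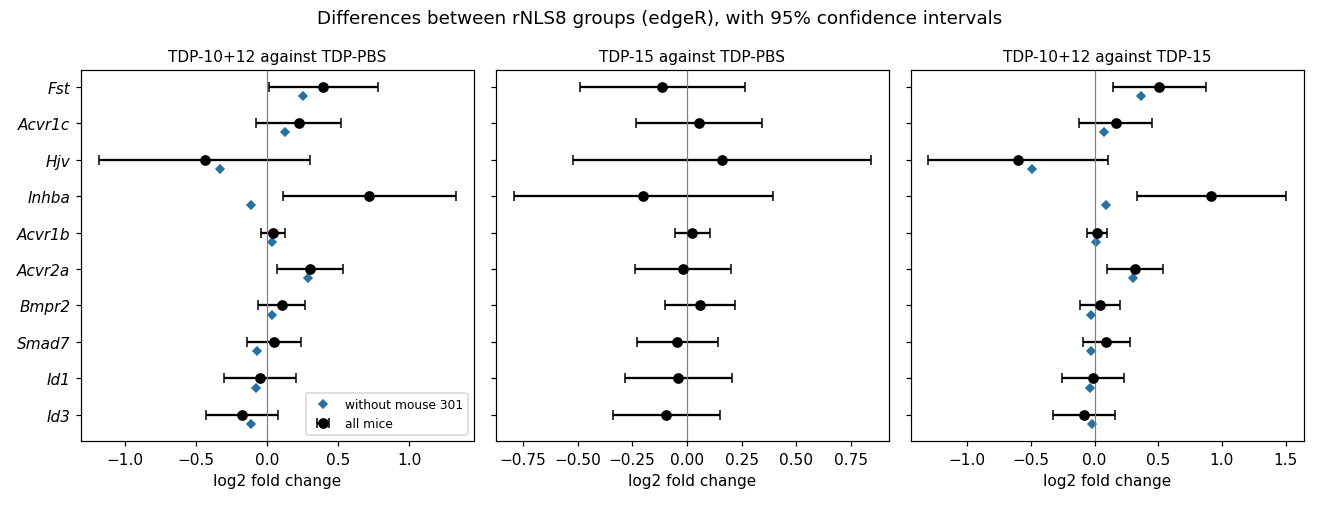
Log2 fold change (x axis) of the 10 genes between the bigenic groups, with 95% confidence intervals from edgeR in black and, for comparisons with TDP-10+12, the estimate without mouse 301 in blue. The estimate of Inhba against TDP-PBS moves from 0.72 to -0.11 without that mouse, and that of Acvr2a from 0.30 to 0.28.

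Sex was compared next, within groups. By edgeR, 0 of the 10 genes differed between females and males, where 0.0933% of all genes (17 of 18220) were called and 724 had an unadjusted p under 0.05, none of them a member. The largest estimate was that of Inhba, -0.35 for female against male (95% confidence interval -0.74 to 0.04; edgeR adjusted p = 0.9995), and 0.04 without mouse 301, a male. Fst was at 2.22 ± 0.35 CPM (SD, n = 10) in female and 2.42 ± 0.81 (n = 7) in male ctrl-PBS mice, and at 0.845 ± 0.27 (n = 4) and 1.02 ± 0.32 (n = 6) in TDP-PBS mice. The genotype by sex term in the 27 PBS mice passed for 0 of the 10 and for 0% of 17363 genes by edgeR, with 1097 genes and 0 of the 10 at an unadjusted p under 0.05. DESeq2 and limma-voom called 0 of the 10 in both tests. The interval of this term was -0.81 to 0.54 for Fst and -0.27 to 0.77 for Acvr1c.

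Mouse 301 was the TDP-10+12 male with the highest Inhba. It also had 93.2 CPM of Skil, a SMAD-binding repressor that TGF-beta induces, against 26.8 to 39.2 in the other 30 bigenic mice and 31.6 to 50.3 in ctrl-PBS mice. Ptgs2, an activity-regulated and inflammatory gene encoding COX-2, was at 34.6 CPM in mouse 301 and 17.0 in mouse 266, against 2.85 to 8.79 in the other bigenic mice. Bdnf, a neurotrophin gene induced by activity, was at 31.1 CPM in mouse 301 and 7.06 to 21.7 in the others. The astrocyte gene Gfap was at 1132 CPM in mouse 301, above the 592 CPM of the highest other bigenic mouse. Slc6a5, the glycine transporter of hindbrain and spinal neurons, was at 44.4 CPM in mouse 301 and 6.08 in mouse 266, and at most at 0.592 in the other 30. Fst in mouse 301 was 2.32 CPM, inside the ctrl-PBS range. Among TDP-10+12 mice, the highest values of Tgfb1 (44.6 CPM), Pmepa1 (310) and Acvr1 (45.2) also lay far above the group medians (13.6, 87.9 and 24.3). These genes were picked once their values were known, and what sets the mice apart was not tested.

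**Figure D5:**
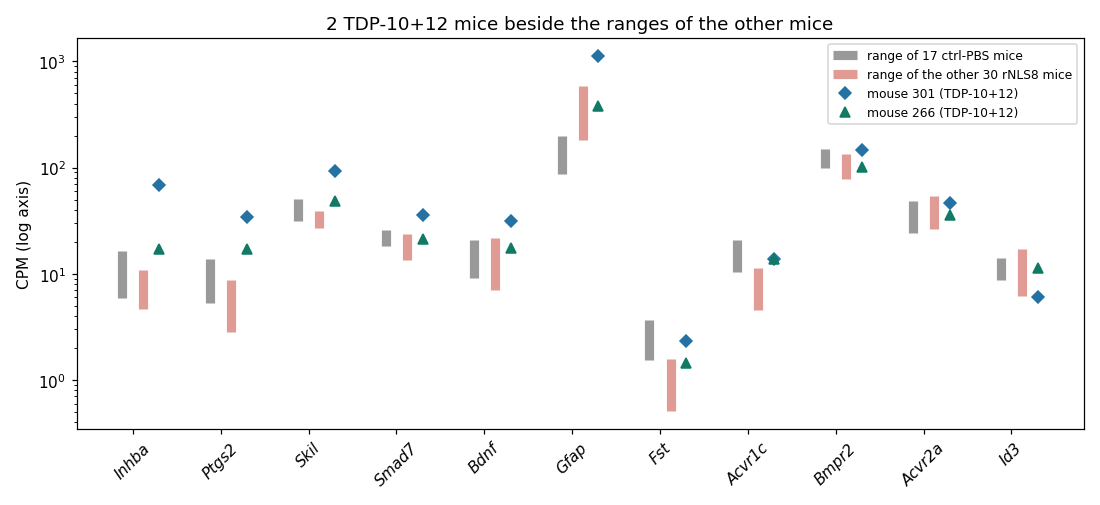
CPM (y axis, log scale) of 11 genes in mice 301 (diamonds) and 266 (triangles), beside the full range of the 17 ctrl-PBS mice (grey) and of the other 30 bigenic mice (red). Mouse 301 lies above both ranges for Inhba, Ptgs2, Skil, Smad7, Bdnf and Gfap.

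Genes whose level followed that of a member were ranked by Pearson's r of log2 CPM minus the group mean over the 49 mice, among 18219 genes. The mice share the tissue dissection and differ in depth and cell composition, so that r is a description. The values named for each member are the highest among those 18219 genes, and they were not weighed against chance. Acvr1c was most like Fam126b (r = 0.735), Mfap3l (0.727) and Sv2c (0.673), and Fst most like Gm527 (0.586), Mrps17 (0.570) and Gm8203 (0.551). Without mouse 301 the values of Fst were 0.608, 0.539 and 0.471. Hjv was closest to Arhgap15 (0.569), Lingo2 (0.568) and Clstn1 (0.567). By rank (Spearman's rho) the values of Hjv were 0.512, 0.385 and 0.456, at the low counts of this gene. Inhba was most like Ptgs2 (0.786), Trib2 (0.775) and Skil (0.762). These values fell to 0.632, 0.617 and 0.497 without mouse 301. Bmpr2 was most like Ptpn4 (0.871), Ube3a (0.849) and Nsd2 (0.843), and Acvr2a most like Nnat (0.799), Hpcal1 (0.786) and Arhgap6 (0.775). Acvr1b was closest to Prepl (0.618), Smyd3 (0.612) and Htr5a (0.606). Smad7 was closest to Jup (0.767), Niban2 (0.736) and Slc25a42 (0.725), with 0.634, 0.581 and 0.586 without mouse 301. Id1 was closest to Mfsd2a (0.614), Fkbp5 (0.591) and Ltc4s (0.588), and Id3 to Ptov1 (0.654), Apoe (0.638) and Jund (0.638).

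Since Inhba is known as a gene induced by neuronal activity, 8 activity-regulated genes were listed beside it. Their summed level had a median of 1400 CPM in ctrl-PBS mice (range 564 to 2130), 661 in TDP-PBS (545 to 1050), 607 in TDP-10+12 (347 to 1120) and 564 in TDP-15 (269 to 1030). By edgeR, 4 of the 8 fell in TDP-PBS against ctrl-PBS, 3 in TDP-10+12 and 6 in TDP-15, beside 21.6%, 20% and 23.2% of all genes, and 0 rose in each. In TDP-PBS, Arc fell by 1.38 ± 0.29 (SE) on the log2 scale, Npas4 by 1.03 ± 0.21, Egr1 by 0.97 ± 0.22 and Fos by 0.76 ± 0.31 (edgeR adjusted p = 0.00011, 7.7e-05, 0.00022 and 0.047). The corresponding value for Inhba was -0.14 ± 0.27, with an SE that rests on a spread over all mice, mouse 301 included.

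In the annotation of GRCm38.p6, Fst lies on chromosome 13 (114452262 to 114458989, minus strand), Acvr1c on chromosome 2 (58267453 to 58357896, minus strand), Hjv on chromosome 3 (96525163 to 96529216, plus strand) and Inhba on chromosome 13 (16004256 to 16031609, plus strand). The long noncoding genes that overlap Fst (Gm41074, 27 counts over all mice against 1414) and Acvr1c (Gm13544, 384 against 10064) held few reads.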

How the data were processed

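RNA of about 30 mg of neocortex per mouse was read by the authors from both ends at 100 bp. The authors deposited whole-number counts per gene and mouse. The submitters' processing notes name HISAT, HISAT2, Bowtie, Bowtie2 and RSEM and the build mm10, without roles, so the counts may be rounded estimates, and the annotation and strand setting are not given in the sources used here. Groups, sexes and mouse numbers are from the sample labels.

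Counts were filtered (filterByExpr by group, minimum count 10, minimum total 15), normalized by TMM and modelled over the 49 mice with edgeR 4.0.16 in R 4.3.3 (glmQLFit, glmQLFTest, two-sided, Benjamini-Hochberg over all genes, threshold 0.05), with group as an additive term for sex and 27 PBS mice for genotype by sex. Standard errors came from the F statistic. CPM are counts per effective library size. Exon lengths are from GENCODE gene models and positions from RefSeq. The fit was tested on simulated data. Figures used matplotlib 3.10.9.

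Members and lists were chosen with earlier results of these data known. Named genes were the 10 members, all receptors and SMADs, Id1 to Id4, the 8 largest pathway increases and decreases in TDP-PBS against ctrl-PBS, and the 3 genes most like each member. A gene that this rule names is not reported here. Inha, Rgma, Rgmb, Nog, Fkbp1a, Pmepa1, Arc, Npas4, Egr1, Fos and the genes of mice 301 and 266 were picked once their values were known. Alternatives were DESeq2's size factors, no filter, sex as a covariate, DESeq2 1.42.0, limma-voom (limma 3.58.1) and a fit of only the 2 groups. Leaving out mouse 301, mice 266 and 301, mice with over 100 CPM of choroid plexus markers, or mice with over 10 CPM of olfactory bulb markers was added after seeing the data. Every mouse is a separate animal.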

Additional observations from a re-analysis of the deposited data

Results flagged for a closer look

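Of the 20 sets of 10 mice checked (each of the 10 genes in TDP-PBS and in TDP-10+12), 4 held a mouse set far apart from the rest. The cutoff would flag about 1 in 20 independent sets of normal values. Here the same mice recur for every gene and CPM was not log-transformed, so the 4 are not weighed against chance. Inhba in mouse 301 of TDP-10+12 was at 68.2 CPM, and the next mouse was at 17.2 CPM. Smad7 in the same mouse was at 35.9 CPM against 23.9 CPM in the next, and Bmpr2 was at 146 CPM against 113.8 CPM. Bmpr2 in mouse 42 of TDP-PBS was at 133 CPM, with the next mouse at 105.3 CPM. The groups of 17 and 12 mice were not checked in this way.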

How the results depend on the processing

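No paired analysis was possible because every mouse is a separate animal with a number of its own. The pathway counts against ctrl-PBS (39 in TDP-PBS, 40 in TDP-10+12 and 42 in TDP-15, the 10 genes included) lay between 35 and 42, 36 and 42, and 39 and 45 over all alternatives. In the main fit these counts hold 4, 5 and 5 of the 10 genes, whose calls restate the selection. The ranges were not worked out for the other 73 genes alone, so nothing about the pathway is read from them. The count of the 10 genes past the threshold stayed at 0 under each alternative in the comparisons among bigenic groups, between sexes and of genotype by sex. The log2 fold change of Inhba in TDP-10+12 against ctrl-PBS was -0.25 by DESeq2, -0.24 without mouse 301 and -0.48 without mice 266 and 301, against 0.58. Without the mice rich in choroid plexus markers, Bmp4, Amh, Smad4 and Bmpr1b in TDP-PBS no longer passed (edgeR adjusted p = 0.056, 0.054, 0.20 and 0.090), at log2 fold changes of 0.44, -0.50, -0.10 and 0.22 against 0.54, -0.49, -0.15 and 0.22 with all mice, and Bmpr1b did not pass without the filter or in the fit of the 2 groups alone (0.0501 and 0.0503). Acvr1 passed in the fit of the 2 groups alone (0.034) and without mice 266 and 301 (0.039). The causes were not tested. Depth limits Hjv, with 1 to 37 counts per mouse, most.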
